A study of Mus musculus with 37 samples.

Results

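The dual-specificity MAP kinase phosphatases encoded by Dusp1, Dusp4, Dusp5, Dusp6, Dusp7, Dusp8, Dusp10 and Dusp16 were followed in mouse liver after partial hepatectomy, an operation that removes the larger part of the liver. These 8 genes were selected on their symbols from a deposited table of 55487 genes, and all 8 were among the 15564 genes with enough counts to be tested. The table holds 37 RNA sequencing libraries from mice lacking Nox4 (labelled NOX4-/-, called KO here) and from wild-type (WT) mice. Nox4 is an NADPH oxidase that releases hydrogen peroxide. The KO livers comprised 5 after a sham operation, and after hepatectomy 3 at 6 h, 4 at 24 h, 4 at 48 h and 3 at 7 d. For the WT there were 5 livers after sham surgery, and 3 at 6 h, 3 at 24 h, 4 at 48 h and 3 at 7 d. The sham livers of a genotype were pooled across their times. In the KO they were taken at 24 h (replicate 1), 48 h (replicates 2 and 3), 72 h (replicate 4) and 6 h (replicate 5). In the WT the times were 7 d (replicate 1), 48 h (replicates 2 and 4), 24 h (replicate 3) and 6 h (replicate 5). Each group held males and females, except that all 6 h hepatectomy livers of both genotypes were male. The labels give no strain, age, batch or animal, so p-values measure the spread between these libraries.

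MAP kinases are switched on by phosphorylation of a threonine and a tyrosine in their activation loop, and these phosphatases remove both phosphates. Many of their genes are themselves induced by MAP kinase signalling, which makes them a negative feedback on the pathway. Dusp1, Dusp4 and Dusp5 encode inducible enzymes of the nucleus, and the Dusp5 enzyme acts on ERK. Dusp6 and Dusp7 encode cytoplasmic enzymes that act on ERK. Dusp8, Dusp10 and Dusp16 encode enzymes that act mainly on JNK and p38, the stress-activated MAP kinases. After hepatectomy, growth factor and stress signalling through these kinases precedes the entry of hepatocytes into the cell cycle.

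Promoter sequences were searched because several of the genes moved together, and some of them are printed. RefSeq (GRCm38.p6) gave a sequence for 7 of the 8 genes, all but Dusp4. The 250 bases before the start are printed for Dusp5, which had the largest changes in the KO, and for Dusp8 and Dusp1, which hold motif matches. They are also printed for Dusp7, which moved with none of the other 7. Those of Dusp6, and of Dusp10 and Dusp16, which moved with Dusp5, are not printed. Capitals mark the motif matches described below. The windows lie at chr19:53528895-53529144 on the plus strand for Dusp5, chr7:142095285-142095534 on the minus strand for Dusp8, chr17:26508473-26508722 on the minus strand for Dusp1 and chr9:106368382-106368631 on the plus strand for Dusp7.
Dusp5: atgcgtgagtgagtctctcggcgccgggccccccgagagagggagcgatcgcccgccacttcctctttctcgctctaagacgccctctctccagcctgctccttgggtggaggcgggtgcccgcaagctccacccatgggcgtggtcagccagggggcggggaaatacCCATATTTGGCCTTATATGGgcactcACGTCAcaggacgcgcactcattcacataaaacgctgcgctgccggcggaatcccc
Dusp8: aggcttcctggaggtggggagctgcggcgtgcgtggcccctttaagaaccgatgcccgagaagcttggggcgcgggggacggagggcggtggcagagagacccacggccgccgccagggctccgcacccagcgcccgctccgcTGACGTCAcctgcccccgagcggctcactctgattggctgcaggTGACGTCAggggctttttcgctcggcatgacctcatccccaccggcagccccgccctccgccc
Dusp1: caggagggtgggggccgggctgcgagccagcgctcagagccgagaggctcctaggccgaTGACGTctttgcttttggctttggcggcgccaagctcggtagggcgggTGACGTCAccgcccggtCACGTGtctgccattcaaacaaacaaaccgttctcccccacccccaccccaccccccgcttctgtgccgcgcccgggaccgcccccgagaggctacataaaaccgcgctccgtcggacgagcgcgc
Dusp7: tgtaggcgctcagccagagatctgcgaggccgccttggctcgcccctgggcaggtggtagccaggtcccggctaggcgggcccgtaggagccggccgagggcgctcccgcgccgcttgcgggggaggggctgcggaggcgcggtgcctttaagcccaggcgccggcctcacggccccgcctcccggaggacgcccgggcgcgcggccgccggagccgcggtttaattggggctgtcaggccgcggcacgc

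The motifs were chosen after the expression values had been seen, and both strands of 300 bases around each start (250 before and 50 after) were searched. The SRF CArG box, the site of serum response factor, was in 1.63% of 32851 promoters of that length. Dusp5 had 2 adjoining matches, CCATATTTGG beginning 82 bases before the start and CCTTATATGG beginning 72 bases before it. The cAMP response element TGACGTCA was in 1.79% of promoters. It began 107 and 63 bases before the start of Dusp8 and 143 bases before that of Dusp1. Its shorter core TGACGT, which every full element also holds, was in 7.51% of promoters, and among these genes in Dusp8, Dusp1 and Dusp5. The E-box CACGTG, found in 7.15% of promoters, was in Dusp1 alone of the 7. No match lay in these 7 windows for the AP-1 site TGANTCA (7.81% of promoters), the ETS site CCGGAAGT (3.89%) or the glucocorticoid response element (0.00913%). None of the motifs searched had a match in the windows of Dusp6, Dusp7, Dusp10 and Dusp16. A part of any motif in the expression values was not tested.

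The libraries held 26232544 to 48827025 counts each. Nox4 itself was lower in the KO, at 0.325 to 4.98 CPM in 12 KO males against 3.95 to 23.5 CPM in 11 WT males, and at 0 to 0.245 CPM in 7 KO females against 0.778 to 3.36 CPM in 7 WT females. CPM are counts divided by library size after TMM scaling. Averaged over the stages the log2 change of Nox4 was -2.82 (SE 0.28, edgeR adjusted p = 4.27e-08). All 10 hepatocyte markers were present in every group. On the first principal component of expression, KO 24 h replicate 1 scored -26.81, apart from the 90.63 to 122.12 of the other 3 KO 24 h livers and beside the -32.81 to 0.66 of the WT 24 h livers. WT 24 h replicate 3 had the largest share of mitochondrial counts, 8.934%, and a TMM factor of 1.311. The sham livers taken at 6 h scored 19.31 in the KO and 40.88 in the WT, above all other sham livers, which lay below 0.

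In sham livers the phosphatase genes differed widely in level. Per kilobase of exon, the KO sham means were 7.69 ± 3.86 CPM per kb for Dusp6, 6.77 ± 2.73 for Dusp1, 3.14 ± 1.24 for Dusp16, 1.09 ± 0.24 for Dusp7, 0.75 ± 0.128 for Dusp10, 0.538 ± 0.374 for Dusp8, 0.474 ± 0.409 for Dusp4 and 0.356 ± 0.093 for Dusp5 (SD, n = 5). Of the neighbours in this order, only Dusp16 and Dusp7 were further apart than the sum of their SDs. The WT sham livers gave 6.16 ± 1.54 CPM per kb for Dusp6, 7.55 ± 6.55 for Dusp1, 3.28 ± 0.78 for Dusp16 and 0.373 ± 0.165 for Dusp5 (SD, n = 5), with Dusp5 again the lowest of the 8. At 24 h in the KO, Dusp5 reached 12.1 ± 11.2 CPM per kb (SD, n = 4), level with Dusp1 at 12.1 ± 8.82 and the highest of the 8. In the WT at 24 h Dusp5 was at 0.53 ± 0.19 CPM per kb (SD, n = 3), and Dusp1 and Dusp6 led at 14.2 ± 3.81 and 8.33 ± 3.01.

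**Figure D1:**
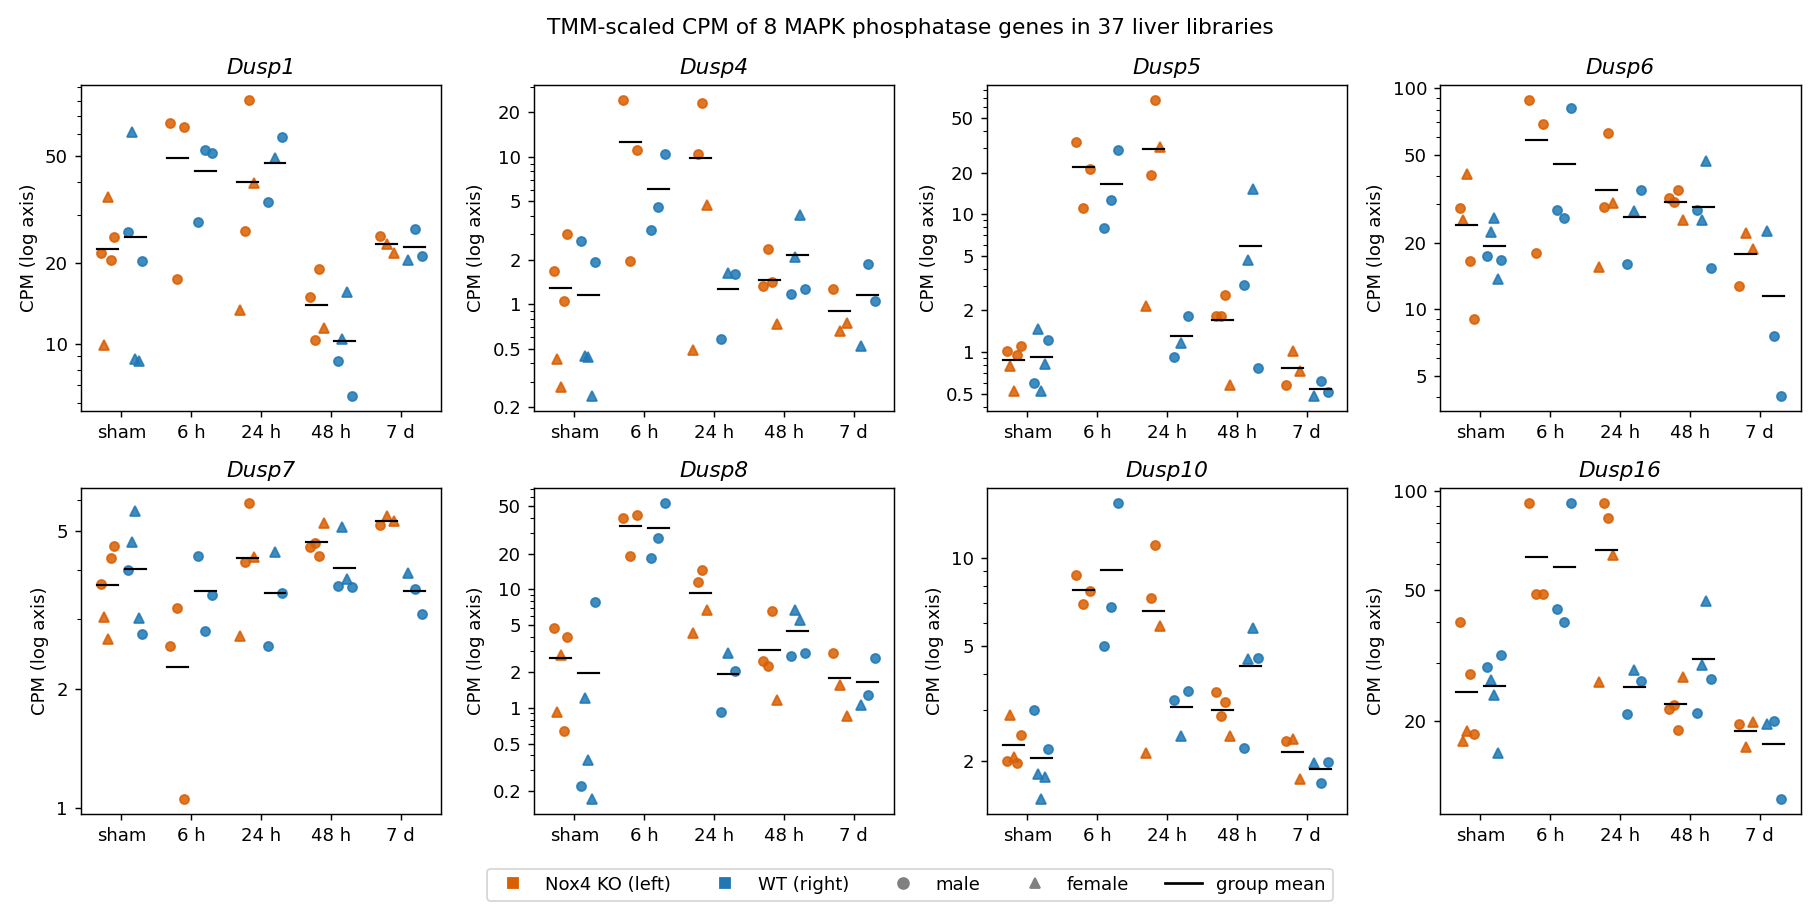
TMM-scaled CPM (log axis) of the 8 phosphatase genes in each of 37 livers, by stage, with KO livers left and WT livers right, circles for males, triangles for females and bars for group means. Dusp5 lies at 11.1 to 33.5 CPM in KO 6 h livers and 7.96 to 29.1 CPM in WT 6 h livers, and at 24 h at 2.14 to 67.5 CPM in KO livers against 0.925 to 1.83 CPM in WT livers.

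The list was chosen by symbol, but drawn up with the values of these genes in all 10 groups known. The stage and genotype values below are therefore descriptions, and the edgeR p-values, adjusted over all 15564 genes, are not independent support for them. The sex comparison and the promoter letters were no part of that choice.

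At 6 h, Dusp5, Dusp8, Dusp10 and Dusp16 were higher after hepatectomy than after sham in both genotypes, and Dusp4 was higher in the KO. The ERK phosphatase of the nucleus, Dusp5, had the largest log2 change of the 8 in the KO. In the WT its change was the largest too, but that order turned without the 6 h sham livers, when Dusp8 stood at 5.77, while Dusp5 was at no more than 4.4 under any alternative. In the KO, 5 of the 8 genes were called higher and none lower, where 6.62% of all genes tested were called and 4.11% as higher. The WT gave 4 of 8 higher and none lower, where 7.86% of all genes were called and 4.16% as higher. Over the 8 genes the median log2 change was 1.58 in the KO and 1.73 in the WT, beside 0.00 and 0.02 over all genes.

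Dusp5 was at 33.5, 11.1 and 21.4 CPM in KO 6 h replicates 1 to 3, against 1.02, 0.797, 0.523, 0.947 and 1.11 CPM in the KO sham livers. In the WT it was at 7.96, 12.6 and 29.1 CPM at 6 h, against 0.592, 1.47, 0.518, 0.814 and 1.22 CPM in sham livers. Every 6 h liver of either genotype lay above every sham liver of its genotype. The share of all genes that separated in this way was not counted, here or in the comparisons below. The log2 change was 4.59 (SE 0.72, edgeR adjusted p = 0.000394) in the KO and 4.07 (SE 0.74, adjusted p = 0.00178) in the WT.

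The JNK and p38 phosphatases also lay above the sham range in every 6 h liver. In both genotypes the ratio of lowest 6 h to highest sham value was smaller than for Dusp5. Dusp8 was at 40.2, 19.0 and 42.6 CPM in KO 6 h livers, against 4.75, 0.92, 2.82, 0.638 and 3.96 CPM in KO sham livers. WT 6 h livers held 18.5, 27.1 and 53.7 CPM of Dusp8, against 0.222, 1.21, 0.363, 0.17 and 7.84 CPM in WT sham livers. The ranges did not overlap in either genotype, and the highest WT sham value, 7.84 CPM, belonged to the sham liver taken at 6 h. The log2 change of Dusp8 was 3.39 (SE 0.77, adjusted p = 0.00728) in the KO and 3.86 (SE 0.78, adjusted p = 0.00401) in the WT.

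Dusp10 was at 8.74, 6.95 and 7.70 CPM in KO 6 h livers, against 2.01, 2.88, 2.07, 1.97 and 2.47 CPM in KO sham livers. For the WT the Dusp10 values were 5.0, 6.77 and 15.5 CPM at 6 h, against 3.01, 1.81, 1.48, 1.76 and 2.21 CPM after sham. Again no 6 h value lay within the sham range. The log2 increase of Dusp10 was 1.66 (SE 0.35, adjusted p = 0.00424) in the KO and 2.02 (SE 0.36, adjusted p = 0.00131) in the WT.

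Dusp16, the longest of these transcripts, was at 92.3, 48.7 and 48.7 CPM in KO 6 h livers, against 40.1, 17.5, 18.7, 27.9 and 18.3 CPM in KO sham livers. It was at 44.0, 40.1 and 92.3 CPM in WT 6 h livers, against 29.3, 26.7, 24.0, 16.0 and 31.9 CPM in WT sham livers. The groups did not overlap, though 1 liver of each genotype at 6 h stood well above the other two. The log2 change was 1.33 (SE 0.34, adjusted p = 0.0161) in the KO and 1.13 (SE 0.35, adjusted p = 0.042) in the WT. The WT call of Dusp16 was lost in 6 of 8 fits that left out 1 library of these groups.

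Dusp4, an inducible nuclear phosphatase, was at 24.4, 1.98 and 11.2 CPM in KO 6 h livers, against 1.69, 0.429, 0.274, 1.06 and 3.02 CPM in KO sham livers. In the WT it was at 3.18, 4.6 and 10.4 CPM at 6 h, against 2.69, 0.446, 0.441, 0.238 and 1.93 CPM after sham. KO 6 h replicate 2 lay inside the KO sham range, while the WT groups did not overlap. The KO change of 3.03 (SE 0.73, adjusted p = 0.0116) passed, and the WT change of 1.97 (SE 0.74, adjusted p = 0.0962) did not. The calls of Dusp4 and Dusp16 in the KO were lost without KO 6 h replicate 1, with 3 genes left, and without WT 6 h replicate 3 the WT kept Dusp5 as its 1 call. With male livers alone the KO kept Dusp4, Dusp5, Dusp8 and Dusp10 and the WT kept Dusp5.

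The other 3 genes did not pass at 6 h in either genotype by edgeR. Dusp6, the cytoplasmic ERK phosphatase, averaged 58.5 ± 36.5 CPM in KO 6 h livers and 24.1 ± 12.1 CPM in KO sham livers, and 45.3 ± 31.7 CPM in WT 6 h livers and 19.3 ± 4.83 CPM in WT sham livers (SD, n = 3 at 6 h and 5 after sham). Its log2 change was 1.49 in both, with adjusted p = 0.0663 (SE 0.5) in the KO and 0.0677 (SE 0.51) in the WT. Dusp6 was called higher in both genotypes by DESeq2 and by edgeR without the count filter, and in the KO without KO 6 h replicate 2, at 1.92 (edgeR adjusted p = 0.0192). Dusp1 averaged 49.1 ± 27.4 CPM in KO 6 h livers and 22.4 ± 9.03 CPM in KO sham livers, a change of 1.11 (SE 0.52, adjusted p = 0.208) that was called without the count filter. One WT sham liver held 61.4 CPM of Dusp1, above all WT 6 h livers at 28.3 to 52.4 CPM. Dusp7 was at 2.56, 3.20 and 1.05 CPM in KO 6 h livers, against 2.67 to 4.59 CPM in KO sham livers, with a log2 change of -0.65 (SE 0.3, adjusted p = 0.194).

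No phosphatase gene was called between KO and WT at 6 h (0 of 8 called and 0 at an unadjusted p under 0.05 by edgeR, 0 by DESeq2), where 0.116% of all genes were called. The log2 changes of KO over WT ran from -0.62 (SE 0.33) for Dusp7 to 1.05 (SE 0.81) for Dusp4. For Dusp5 the difference was 0.41 (SE 0.75), so a difference of the size of that error could not be seen in 3 livers a group. The test of genotype by hepatectomy at 6 h likewise called 0 of the 8 genes by edgeR and by DESeq2, with 0 at an unadjusted p under 0.05. Of all genes it called 0%, that is 0 by edgeR, with 715 at an unadjusted p under 0.05 and 8 called by DESeq2. Neutrophil markers moved with the 6 h groups. In the KO 0 of 9 tested were called against sham by edgeR (5 at an unadjusted p under 0.05), where 6.62% of all genes were. In the WT 5 of 9 were called higher, where 7.86% of all genes were called and 4.16% as higher. The summed neutrophil markers were at 13.7, 23.5 and 29.7 CPM in KO 6 h replicates 1 to 3. They were at 31.8, 41.8 and 80.9 CPM in WT 6 h replicates 1 to 3. The summed cholangiocyte markers were at 45.5, 30.6 and 76.7 CPM in these KO livers and 47.9, 35.2 and 138 CPM in these WT livers. WT 6 h replicate 3 was also the WT 6 h liver highest for Dusp4, Dusp5, Dusp6, Dusp8, Dusp10 and Dusp16. In the WT 2 of 8 B cell markers were lower than after sham at 6 h. The part of any of these cells in the phosphatase values was not tested.

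**Figure D2:**
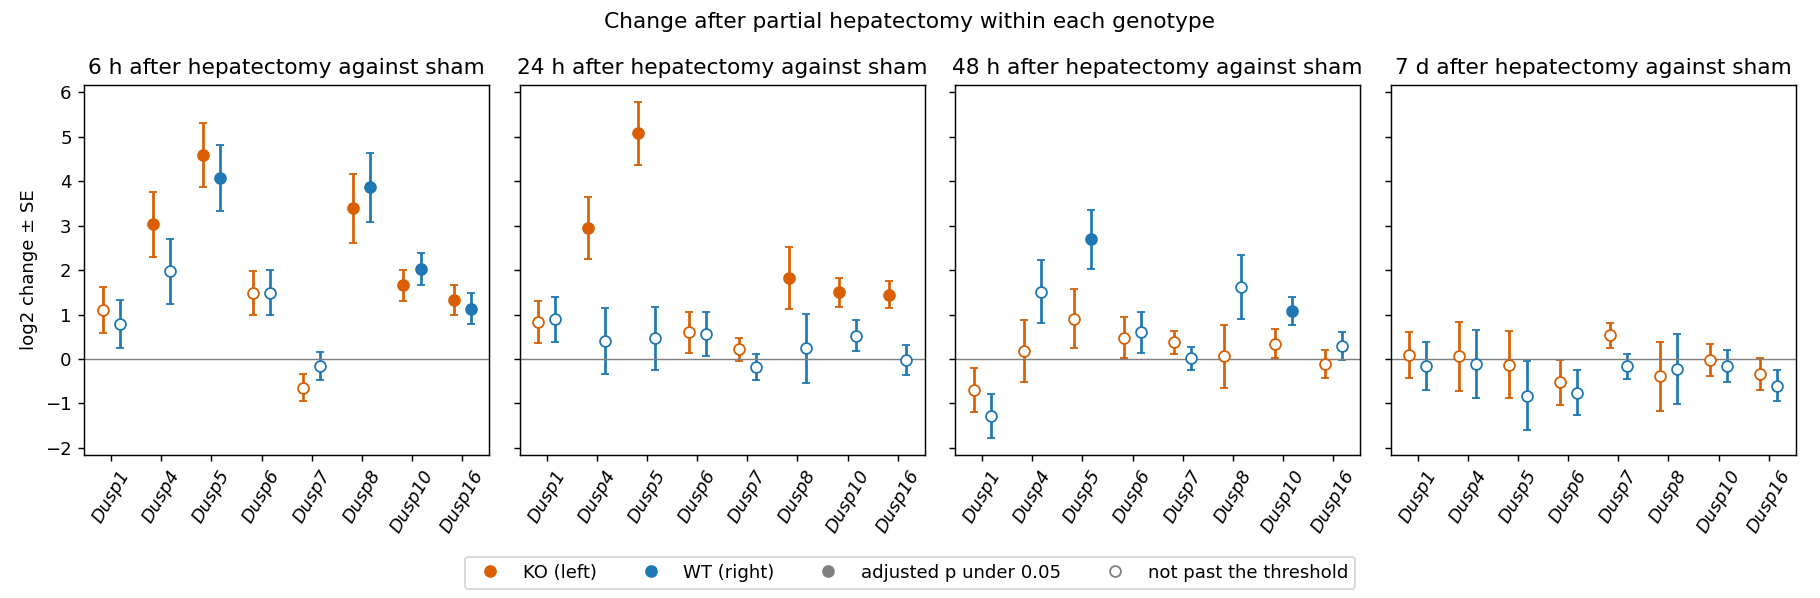
Log2 change of each phosphatase gene after hepatectomy over sham, with SE bars, in KO and WT livers at each time, filled where the edgeR adjusted p was under 0.05. At 6 h the Dusp5 points stand at 4.59 in the KO and 4.07 in the WT, and at 24 h at 5.08 in the KO and 0.46 in the WT.

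At 24 h the KO and WT livers differed. Relative to sham, Dusp4, Dusp5, Dusp8, Dusp10 and Dusp16 were higher in the KO, 5 of 8 genes with none lower, where 28% of all genes tested were called and 15.9% as higher. In the WT 0 of 8 genes were called (0 at an unadjusted p under 0.05 by edgeR, 0 by DESeq2), where 0.925% of all genes were called. The median log2 change over the 8 genes was 1.47 in the KO and 0.43 in the WT, beside -0.01 and 0.04 over all genes.

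Dusp5 was at 2.14, 19.3, 67.5 and 30.7 CPM in KO 24 h replicates 1 to 4, and at 0.925, 1.17 and 1.83 CPM in the WT 24 h livers. All 4 KO livers lay above all WT 24 h livers and all KO sham livers, replicate 1 only just. Against KO sham the log2 change was 5.08 (SE 0.71, edgeR adjusted p = 2.93e-05), and against WT 24 h it was 4.51 (SE 0.85, adjusted p = 0.00164). Relative to the KO sham mean, replicates 1 to 4 stood at 2.43, 21.9, 76.7 and 34.9 times. In the WT the change from sham was 0.46 (SE 0.72, adjusted p = 0.816). The test of whether hepatectomy changed Dusp5 differently in the 2 genotypes gave 4.62 (SE 1, adjusted p = 0.00953).

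Dusp4 was at 0.492, 10.5, 23.3 and 4.72 CPM in KO 24 h livers, and at 0.581, 1.64 and 1.60 CPM in WT 24 h livers. KO replicate 1 was the lowest of these 7 livers and the other 3 KO livers were the highest. The log2 change was 2.94 (SE 0.7, adjusted p = 0.00257) against KO sham and 2.54 (SE 0.84, adjusted p = 0.0356) against WT 24 h. The test of the difference between genotypes in the change from sham gave 2.54 (SE 1, adjusted p = 0.113).

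Dusp16 was at 26.4, 92.3, 83.0 and 64.2 CPM in KO 24 h livers, and at 21.1, 28.6 and 26.6 CPM in WT 24 h livers. KO replicate 1 sat among the WT livers, and the other 3 KO livers lay above all of them and above the KO sham livers. The log2 change of Dusp16 was 1.45 (SE 0.31, adjusted p = 0.00121) over KO sham and 1.38 (SE 0.37, adjusted p = 0.012) over WT 24 h. Its interaction term was 1.47 (SE 0.47, adjusted p = 0.0468).

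Dusp10 showed the same split, at 2.14, 7.29, 11.1 and 5.85 CPM in KO 24 h livers and 3.25, 2.45 and 3.49 CPM in WT 24 h livers. Replicate 1 was the lowest of the 7 livers and the other 3 KO livers were the highest. It changed by 1.5 (SE 0.32, adjusted p = 0.00116) against KO sham and by 1.12 (SE 0.38, adjusted p = 0.0371) against WT 24 h, with an interaction of 0.99 (SE 0.48, adjusted p = 0.183). The KO over WT call of Dusp10 was lost in 6 of 7 fits that left out 1 library and without the count filter, and that of Dusp4 in 5 of 7 such fits. Dusp8 was at 4.25, 11.5, 14.7 and 6.65 CPM in KO 24 h livers and 0.925, 2.89 and 2.04 CPM in WT 24 h livers. The 2 groups did not overlap, but the KO over WT change of 2.10 (SE 0.85, adjusted p = 0.0787) did not pass by edgeR. DESeq2 called it, as did edgeR when the 6 h sham livers were left out or no count filter was used. Against KO sham, with which replicate 1 overlapped, the change of Dusp8 was 1.83 (SE 0.7, adjusted p = 0.0481), a call that was lost in 8 of 9 fits that left out 1 library of these groups.

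Dusp1, Dusp6 and Dusp7 were not called at 24 h in any of these comparisons by edgeR or DESeq2, and without the count filter edgeR called Dusp1 against sham in both genotypes. Dusp1 was at 13.3, 26.3, 80.7 and 39.7 CPM in KO 24 h livers and 33.6, 48.9 and 58.7 CPM in WT 24 h livers, with a KO over WT change of -0.24 (SE 0.54, adjusted p = 0.789). Dusp6 was at 15.5, 29.1, 63.0 and 30.3 CPM in KO 24 h livers and 16.0, 27.9 and 34.6 CPM in WT 24 h livers, a change of 0.41 (SE 0.52, adjusted p = 0.611). For both genes KO replicate 1 was the lowest and replicate 3 the highest of the 7 livers. Dusp7 ranged from 2.71 to 5.90 CPM in KO 24 h livers and from 2.56 to 4.42 CPM in WT 24 h livers, with a change of 0.29 (SE 0.3, adjusted p = 0.515).

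**Figure D3:**
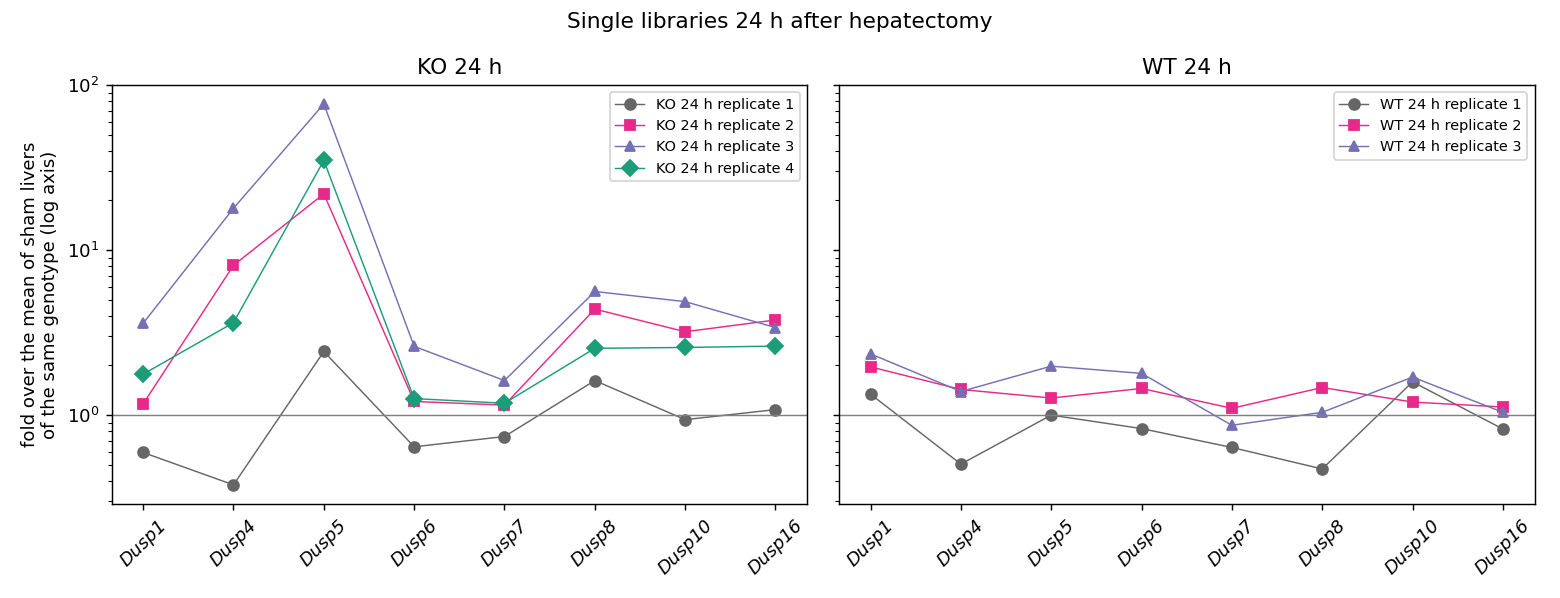
Ratio of each 24 h liver to the sham mean of its own genotype for each phosphatase gene (log axis), 1 point per replicate. The left panel holds KO livers and the right panel WT livers. KO replicate 1 stays between 0.378 and 2.43, while KO replicate 3 reaches 76.7 for Dusp5 and 17.9 for Dusp4.

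Between the genotypes at 24 h, 4 of 8 genes were called higher in the KO (Dusp4, Dusp5, Dusp10 and Dusp16) and none lower, where 18.6% of all genes were called and 11.1% as higher. The interaction test called 2 of 8 (Dusp5 and Dusp16), both higher, where 8.47% of all genes were called and 5.52% as higher. Single livers moved these counts. Leaving out KO 24 h replicate 1 kept 4 genes in the KO over WT comparison and gave 4 in the interaction (Dusp4, Dusp5, Dusp10 and Dusp16). Leaving out WT 24 h replicate 1 left 1 gene, Dusp5, in both. Without WT 24 h replicate 3 the comparison kept Dusp5 and Dusp16 and the interaction kept none, with Dusp5 at 4.81 (adjusted p = 0.0611). A fit of the KO and WT 24 h livers alone called 0 of the 8 genes by edgeR, and 0 of all genes.

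**Figure D4:**
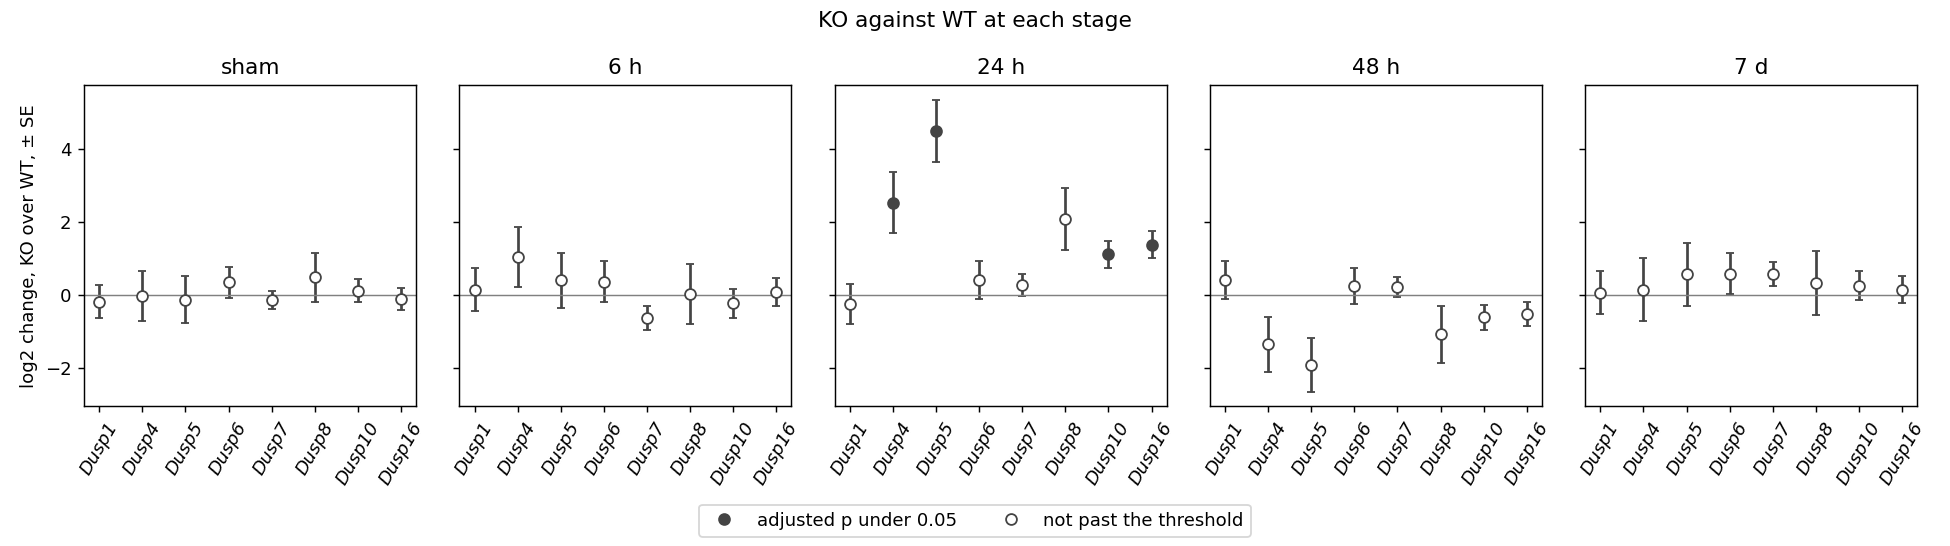
Log2 change of KO over WT for each phosphatase gene at each stage, with SE bars, filled where the edgeR adjusted p was under 0.05. The 4 filled points are all at 24 h, from 1.12 for Dusp10 to 4.51 for Dusp5.

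Markers of other liver cells moved with the KO 24 h group. Against KO sham, 9 of 10 Kupffer cell markers were lower, 7 of 10 sinusoidal endothelial markers were lower and 1 higher, and 6 of 9 tested T and NK cell markers and 5 of 8 B cell markers were lower. Of all genes tested 28% were called in this comparison, 15.9% as higher. Of 7 cholangiocyte markers tested, 1 was higher, Sox9, which is near the share over all genes. The summed Kupffer cell markers were at 420, 132, 143 and 208 CPM in KO 24 h replicates 1 to 4, against 372 to 576 CPM in KO sham livers. In this sum replicate 1 sat with the sham livers. The summed sinusoidal endothelial markers were at 78.5 to 113 CPM in KO 24 h livers, replicate 1 included, against 136 to 247 CPM in KO sham livers. The summed T and NK cell markers were at 0.679 to 2.25 CPM in KO 24 h livers against 2.18 to 8.68 CPM in KO sham livers, and the B cell markers at 1.51 to 6.36 CPM against 6.6 to 14.8 CPM. The summed cholangiocyte markers were at 35.5, 74.4, 166 and 42.4 CPM in KO 24 h replicates 1 to 4. KO sham livers held 20.2 to 57.9 CPM. Dusp5 in KO 24 h replicates 1 to 4 was at 2.14, 19.3, 67.5 and 30.7 CPM. In WT 24 h livers the cholangiocyte sum was 28.4 to 71.3 CPM, with Dusp5 at 0.925 to 1.83 CPM. KO over WT at 24 h, 7 of 10 sinusoidal endothelial and 3 of 10 Kupffer cell markers were lower. In that comparison 2 of 7 cholangiocyte markers, Sox9 and Epcam, were higher. It called 18.6% of all genes, 11.1% as higher. No neutrophil marker of 9 tested was called by edgeR, and none had an unadjusted p under 0.05. The summed hepatocyte markers were at 99900 to 174000 CPM in KO 24 h livers and 48600 to 90900 CPM in WT 24 h livers, without overlap. In KO sham livers the hepatocyte sum was 107000 to 141000 CPM. None of the markers was at 0 throughout the KO 24 h group. In bulk liver, fewer cells of a type and less RNA per cell cannot be told apart, and the part of these cells in the phosphatase values was not tested.

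At 48 h calls against sham were made in the WT. In the KO 0 of 8 genes were called against sham (0 at an unadjusted p under 0.05 by edgeR, 0 by DESeq2), where 3% of all genes were called. In the WT 2 of 8, Dusp5 and Dusp10, were called higher and none lower by edgeR, where 8.29% of all genes were called and 4.68% as higher. Dusp5 was at 1.82, 1.82, 2.58 and 0.572 CPM in KO 48 h livers, against the 0.523 to 1.11 CPM of KO sham livers. In the WT it was at 3.04, 4.64, 15.1 and 0.769 CPM at 48 h, with replicate 3 far above and replicate 4 inside the sham range of 0.518 to 1.47 CPM. The WT change was 2.69 (SE 0.66, adjusted p = 0.00941), and without replicate 3 it was 1.57 (adjusted p = 0.141), with 0 of 8 genes called. Dusp10 was at 2.22, 4.51, 5.73 and 4.54 CPM in WT 48 h livers, against 1.48 to 3.01 CPM in WT sham livers, a change of 1.08 (SE 0.32, adjusted p = 0.0333). That call was lost in 7 of 9 fits that left out 1 library, with male livers alone, without the 6 h sham livers and in the compared groups alone. Dusp8 changed by 1.62 (adjusted p = 0.173) in the WT at 48 h, and by 3.09 (adjusted p = 0.00528) without WT sham replicate 5, the liver taken at 6 h.

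Markers of other cells also moved with the WT 48 h group. Against WT sham, 3 of 10 sinusoidal endothelial markers, 2 of 9 tested T and NK cell markers and 2 of 8 B cell markers were lower. Of 10 Kupffer cell markers 1 was higher and 1 lower. Over all genes 8.29% were called, 4.68% as higher. The summed T and NK cell markers were at 0.832 to 1.56 CPM in WT 48 h livers against 1.66 to 5.5 CPM in WT sham livers, the B cell markers at 1.78 to 7.16 CPM against 9.38 to 27.8 CPM, and the sinusoidal endothelial markers at 74.0 to 171 CPM against 163 to 406 CPM. No cholangiocyte marker of 7 tested was called by edgeR (1 at an unadjusted p under 0.05). Their sum was 82.2 CPM in WT 48 h replicate 3, the liver of this group highest for Dusp5. It was 25.7 to 38.5 CPM in the other 3 WT 48 h livers. In KO 48 h replicate 2 the cholangiocyte sum was 75.7 CPM, with Dusp5 at 1.82 CPM. The part of these cells in the phosphatase values was not tested.

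Direct comparison of KO with WT at 48 h called 0 of 8 genes (1 at an unadjusted p under 0.05 by edgeR, 0 by DESeq2), where 0.341% of all genes were called. Dusp5 had a KO over WT change of -1.90 (SE 0.74, adjusted p = 0.298), and the interaction at 48 h called 0 of 8 by edgeR and DESeq2 (0 at an unadjusted p under 0.05). Of all genes that interaction called 0% by edgeR, with 1198 at an unadjusted p under 0.05 and 53 called by DESeq2. Dusp1 at 48 h was at 10.3 to 18.9 CPM in KO livers and 6.36 to 15.6 CPM in WT livers, the lowest group means of the gene in each genotype. Its changes from sham, -0.70 (SE 0.49, adjusted p = 0.606) in the KO and -1.29 (SE 0.49, adjusted p = 0.103) in the WT, did not pass by edgeR. In the WT DESeq2, and edgeR without the count filter, called Dusp1 lower.

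By 7 d no phosphatase gene was called against sham in either genotype, or between genotypes (0 of 8 in each, 0 at an unadjusted p under 0.05 by edgeR, 0 by DESeq2). Against sham 0% of all genes were called in both genotypes, with 497 genes in the KO and 950 in the WT at an unadjusted p under 0.05 and 6 and 31 called by DESeq2. KO over WT at 7 d called 0.045% of all genes, and the interaction at 7 d called 0% by edgeR, with 347 at an unadjusted p under 0.05, 3 called by DESeq2 and 0 of the 8 by either. Dusp5 was at 0.574, 1.01 and 0.724 CPM in KO 7 d livers and 0.477, 0.615 and 0.513 CPM in WT 7 d livers, within or below the sham ranges. Dusp7 was at 5.17, 5.47 and 5.31 CPM in KO 7 d livers, against 3.91, 3.58 and 3.08 CPM in WT 7 d livers and 2.67 to 4.59 CPM in KO sham livers. The KO 7 d values lay above both, but neither the KO over WT change of 0.58 (SE 0.32, adjusted p = 1) nor the change from KO sham of 0.53 (SE 0.29, adjusted p = 1) passed.

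Between KO and WT sham livers none of the 8 genes was called (0 called and 0 at an unadjusted p under 0.05 by edgeR, 0 by DESeq2), where 0.276% of all genes were called. The changes ran from -0.17 (SE 0.45) for Dusp1 to 0.50 (SE 0.67) for Dusp8. Averaged over the 5 stages, 0 of 8 were called (1 at an unadjusted p under 0.05, 0 by DESeq2), where 2.72% of all genes were called, and the largest change was that of Dusp5, 0.70 (SE 0.33, adjusted p = 0.231).

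Sex was not used in choosing the genes. Male over female, 0 of 8 were called by edgeR (2 at an unadjusted p under 0.05) and 1, Dusp4, by DESeq2, where edgeR called 3.59% of all genes. Dusp4 ranged from 0.581 to 24.4 CPM with a median of 1.93 CPM in 23 male livers. In 14 female livers it ranged from 0.238 to 4.72 CPM with a median of 0.594 CPM. The male livers include all 6 h hepatectomy livers, and the 24.4 CPM was that of KO 6 h replicate 1. With the groups in the model the change of Dusp4 was 1.33 (SE 0.42, edgeR adjusted p = 0.0785). Among sham livers of both genotypes the 5 males held 1.06 to 3.02 CPM and the 5 females 0.238 to 0.446 CPM, without overlap. Sex and time were mixed there, as both 6 h sham livers were male. The female sham livers were taken at 24 h or 48 h, and no male one at 48 h. After hepatectomy the order was reversed in WT 48 h livers, with females at 2.1 and 4.04 CPM and males at 1.18 and 1.28 CPM. The WT 24 h female, at 1.64 CPM, also lay above the males, at 0.581 and 1.6 CPM. In the other hepatectomy groups holding both sexes, every male lay above every female. Dusp8 had a change of 0.86 (SE 0.41, adjusted p = 0.312).

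Across the 37 livers the phosphatase genes fell into those that moved together and those that did not. These correlations are descriptions over libraries that share groups, scaling and depth. On log2(CPM + 1), Pearson's r was 0.91 for Dusp5 and Dusp10, 0.88 for Dusp5 and Dusp16, 0.88 for Dusp4 and Dusp5 and 0.83 for Dusp5 and Dusp8. Dusp6 and Dusp1 had r of 0.67 and 0.50 with Dusp5. Dusp7 had negative r with every other gene, from -0.11 with Dusp16 to -0.37 with Dusp8.

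**Figure D5:**
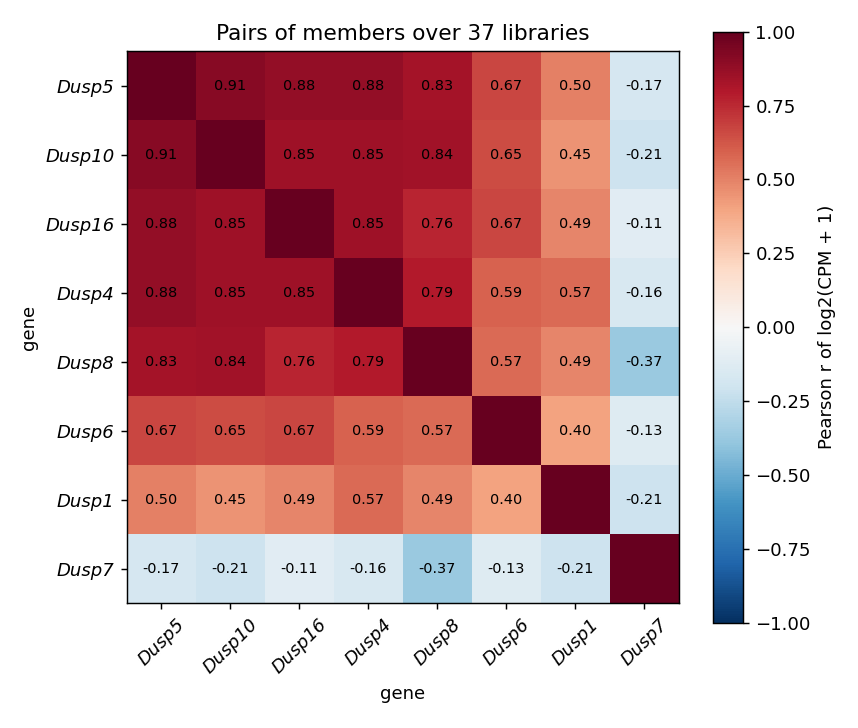
Pearson's r of log2(CPM + 1) for each pair of phosphatase genes over 37 livers. Dusp5, Dusp10, Dusp16, Dusp4 and Dusp8 form a block with r of 0.76 to 0.91, and the Dusp7 row is negative throughout, down to -0.37.

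Among 9615 other genes that averaged 5 CPM or more in at least 1 group, those most like each phosphatase over the 37 livers were found by the same measure. Dusp5 was closest to Hilpda (r = 0.962), a lipid droplet protein induced by hypoxia, to Adamts15 (0.956), a secreted protease, and to Ets2 (0.951), a transcription factor that ERK phosphorylates. Dusp4 was closest to Fosl1 (0.915), an AP-1 subunit, Dync1li1 (0.907), a dynein chain, and Sphk1 (0.905), a sphingosine kinase. Dusp8 was closest to Dot1l (0.923), a histone methyltransferase, Atf3 (0.918), a stress-induced transcription factor, and Atp2a2 (0.915), a calcium pump. For Dusp10 they were Pvr (0.922), Klf6 (0.904) and Kctd3 (0.902), and for Dusp16 Clic4 (0.932), Gm20186 (0.92) and Pakap (0.918). The other 3 genes had looser partners: Nfkbia (0.706), the inhibitor of NF-kappaB, led for Dusp1, Zfand5 (0.75) for Dusp6 and Ing1 (0.641) for Dusp7.

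The remaining catalytically active MAP kinase phosphatase genes, Dusp2 and Dusp9, were at the edge of detection. Dusp2, an inducible nuclear enzyme, averaged 0.768 ± 0.408 CPM in KO 6 h livers and 0.301 ± 0.15 CPM in KO sham livers, and 0.645 ± 0.288 CPM in WT 6 h livers and 0.223 ± 0.0968 CPM in WT sham livers (SD, n = 3 at 6 h and 5 after sham). It was called in the WT at 6 h (log2 change 1.74, SE 0.54, adjusted p = 0.0423), a call lost in 7 of 8 fits leaving out 1 library. Dusp9, a cytoplasmic ERK phosphatase, had 1, 31, 2 and 17 counts in KO 24 h replicates 1 to 4, and 3, 3 and 0 counts in WT 24 h livers, so its level rested on replicates 2 and 4. Against KO sham, with 0 to 3 counts a liver, its adjusted p was 0.0104, and the call was lost without replicate 2. KO over WT at 24 h, both genes were called higher, Dusp2 by 1.74 (SE 0.58, adjusted p = 0.0349) and Dusp9 by 3.0 (SE 1.1, adjusted p = 0.0483). Leaving out 1 library lost these calls in 5 of 7 fits for Dusp2 and 6 of 7 for Dusp9.

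The lists of related genes below were chosen with earlier results known. Their counts stand beside the share of all genes called higher, which was 4.11% at 6 h in the KO, 4.16% at 6 h in the WT, 15.9% at 24 h in the KO and 11.1% in KO over WT at 24 h, and a count near that share is not read as a result about a list. Of 15 ERK output genes tested, 8 were higher than sham in the KO at 6 h and 5 in the WT, and none lower, with median log2 changes of 1.71 and 1.43. At 24 h 12 were higher in the KO and 0 in the WT (0 at an unadjusted p under 0.05 by edgeR), with medians of 1.84 and -0.23, where 0.925% of all genes were called in the WT. KO over WT at 24 h called 9 of the 15 higher. Egr1, an immediate early transcription factor, was at 92.9 to 534 CPM in KO 6 h livers against 7.65 to 21.4 CPM in KO sham livers, and at 28.9 to 525 CPM in KO 24 h livers against 13.0 to 27.7 CPM in WT 24 h livers. Etv4, an ETS factor that ERK induces, was at 0.105 to 5.56 CPM in KO 24 h livers against 0.0193 to 0.0806 CPM in KO sham livers, a log2 change of 6.18 (SE 0.87, adjusted p = 2.93e-05). Fosl1 was at 0.105 to 27.1 CPM in KO 24 h livers and 0 to 0.111 CPM in WT 24 h livers, with the low KO end close to the WT.

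Ligands and feedback inhibitors had counts closer to those shares than the ERK output genes had. Of 12 growth factor ligands tested, 2 were higher in the KO at 6 h (Hbegf and Areg), 1 in the WT at 6 h (Areg) and 3 in the KO at 24 h (Hbegf, Egf and Btc). Hbegf, an EGF receptor ligand, was at 0.879 to 28.6 CPM in KO 24 h livers and 0.555 to 0.806 CPM in WT 24 h livers, a log2 change of 4.10 (SE 0.98, adjusted p = 0.00626). The Sprouty and Spred group, which restrains receptor signalling at another step, had 3 of 11 tested genes higher in the KO at 24 h (Spred3, Spry1 and Spry2) and 1 lower (Lrig1). Spred3 changed by 2.54 (SE 0.47, adjusted p = 0.000285) and Spry1 by 1.31 (SE 0.31, adjusted p = 0.00246). Spry2, at 0.98 (SE 0.37, adjusted p = 0.0462), lost its call in 6 of 9 fits that left out 1 library. In the KO at 6 h, Spry1 (log2 change 1.23, edgeR adjusted p = 0.0247) and Spred2 (0.96, adjusted p = 0.0357) were called higher than after sham. Leaving out 1 library lost these 6 h calls in 3 of 8 fits for Spry1 and 6 of 8 for Spred2.

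Of 12 MAP kinase genes tested, 3 were higher in the KO at 24 h than after sham and 2 lower, where 28% of all genes were called, and their median log2 change was -0.11 beside -0.01 over all genes. Mapk13, which encodes a p38 kinase, changed by 3.28 (SE 0.7, adjusted p = 0.00104), and Mapk15, an atypical MAP kinase, by -2.60 (SE 0.59, adjusted p = 0.00188). Mapk6, another atypical one, changed by 2.18 (SE 0.37, adjusted p = 0.000121), Mapk8, which encodes a JNK, by 1.41 (SE 0.34, adjusted p = 0.00328), and Mapk3, which encodes an ERK, by -0.87 (SE 0.27, adjusted p = 0.0159). None of the 12 was called at 6 h by edgeR in either genotype (3 in the KO and 2 in the WT at an unadjusted p under 0.05). Among 12 tested atypical and other small dual-specificity phosphatases, 1 was called in the KO at 24 h, a smaller share than over all genes. This was Dusp14, at 0.773 to 10.3 CPM in KO 24 h livers against 0.139 to 0.833 CPM in KO sham livers. Its change of 2.94 (SE 0.63, adjusted p = 0.00107) was not past the threshold without KO 24 h replicate 3.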

How the data were processed

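RNA sequencing of 37 mouse liver libraries was analysed from 1 deposited table. Per the labels' protocols, RNA came from frozen liver and libraries from the KAPA Stranded mRNA-Seq kit. The submitters' processing notes name STAR 2.5.3a, RSEM 1.3.0 and GRCm38, without saying which made the table. Its whole-number values were taken as rounded expected counts as deposited by the authors. The strand setting and annotation release are not given in the sources used here, so overlapping genes are less certain. Dusp5 shares 547 exon bases with an antisense gene that had 84 counts in all, against 7658 for Dusp5. Dusp1 shares 50 with Ergic1, which had 79734 counts against 34477 for Dusp1. The other members shared at most 66 exon bases with a gene that had 1 count.

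Genes passing filterByExpr (15564) were scaled by TMM and fitted in edgeR 4.0.16 (R 4.3.3) with robust quasi-likelihood, 1 model holding all libraries, a term per group (10) and a sex term (common biological coefficient of variation 0.39). Benjamini-Hochberg adjustment ran over all 15564 genes, and 0.05 was the threshold. SE is the log2 change over the square root of F. The median log2 change of all genes moved by at most 0.07 from 0. Positions and exon lengths came from GENCODE M21 (55141 of 55487 identifiers matched). Between the 2 most similar replicates, chi-square per degree of freedom was 34.62, so none was counted as a duplicate. The procedure was tested on simulated data. Interval and error terms cover these libraries only.

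The members and gene lists were chosen with earlier results of these data known. Named genes were every member, the 3 genes most like each by Pearson's r, up to 4 genes with the smallest p per list and comparison, and Dusp2 and Dusp9. Alternatives were the compared groups alone, leaving out each library, males alone, no 6 h sham livers, no sex term, a filter at 1 count in all, RLE scaling and DESeq2 1.42.0. Figures were drawn with Python 3.11.15 and matplotlib 3.10.9.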

Additional observations from a re-analysis of the deposited data

Results flagged for a closer look

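The change of Dusp5 after hepatectomy at 24 h differed between KO and WT by 4.62 on the log2 scale (SE 1, edgeR adjusted p = 0.00953), higher in 4 of 4 KO livers than in any WT 24 h liver. Without WT 24 h replicate 3 it was 4.81 (adjusted p = 0.0611). The same test gave 1.47 for Dusp16 (SE 0.47, adjusted p = 0.0468), with 3 of 4 KO livers above all WT 24 h livers, and this call was lost in 14 of 17 fits that left out 1 library of the 4 groups.

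Of 40 combinations of a gene and a group of 4 or 5 livers, 2 held a liver far from the rest of its group. Chance gives about 1 in 20. Dusp8 was at 7.84 CPM in WT sham replicate 5, the sham liver taken at 6 h, against 0.17 to 1.21 CPM in the other 4 WT sham livers. Dusp7 was at 5.11 CPM in WT 48 h replicate 2, a female, against 3.61 to 3.78 CPM in the other 3 WT 48 h livers.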

How the results depend on the processing

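No paired analysis was made, because the labels do not link any liver to another. The labels also give no replicate numbers, and those used here follow the order of the deposited samples. The number of phosphatase genes called stayed within 1.5 times under RLE scaling in every comparison. In fits of the compared groups alone it was 3 for KO 6 h and 3 for KO 24 h against sham (5 in the full model each), 0 for WT 6 h (4), 0 for WT 48 h (2), 0 for KO over WT at 24 h (4) and 0 for the 24 h interaction (2). With male livers alone it was 1 for WT 6 h and 0 for WT 48 h. Without the count filter it was 1 for WT 24 h (0 in the full model), 5 for WT 48 h, 1 for KO over WT at 48 h (0), 1 for the average over stages (0), 4 for the 24 h and 2 for the 48 h interaction (0), and 2 for sex (0). DESeq2 gave 1 for sex. The 24 h interaction gave 1 without a sex term and 1 without the 6 h sham livers, where KO over WT at 24 h gave 5.

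Leaving out 1 library gave 3 to 6 for KO 6 h, 4 to 5 for KO 24 h, 1 to 4 for WT 6 h, 0 to 2 for WT 48 h, 1 to 4 for KO over WT at 24 h, 0 to 4 for the 24 h interaction and 0 to 1 for sex. No other comparison gained a call this way. Dusp5 kept its call in the KO at 6 h and 24 h against sham under every alternative, with adjusted p from 9.57e-33 to 0.00406 at 6 h and from 2.63e-42 to 0.0138 at 24 h. With male livers alone 3 uncalled values changed sign, Dusp4 to -0.91 and Dusp8 to -0.47 in the WT at 48 h against sham, and Dusp5 to 0.13 in KO over WT at 48 h. The cause of these changes was not tested.

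Counts over all genes moved more. The 24 h interaction called 1319 genes, 0 without WT 24 h replicate 3, 3659 without KO 24 h replicate 1 and 0 in the compared groups alone. KO over WT at 24 h called 2891, with 998 to 5452 on leaving out 1 library and 0 in the compared groups alone. KO 24 h against sham called 4351, with 2526 to 6161 and 1028. KO 6 h called 1030, with 288 to 1407 and 264. WT 6 h called 1223, with 55 to 2704 and 1. WT 24 h called 144, with 0 to 508 and 0, and WT 48 h 1291, with 880 to 1292 and 377. Over all alternatives the counts were 210 to 828 for KO 48 h against sham (467 in the full model), 3 to 871 for KO over WT sham (43), 5 to 358 at 6 h (18), 17 to 621 at 48 h (53), 2 to 97 at 7 d (7), 202 to 2029 on average (423) and 430 to 1093 for sex (558). Without the count filter the 24 h interaction called 2361 and WT 24 h 1187. DESeq2 called 1752 at WT 6 h, 483 at WT 24 h, 1595 at KO 6 h and 2109 in the 24 h interaction. The compared groups alone do not apply to the average or to sex, nor male livers alone to sex. Depth limits Dusp2 and Dusp9, genes with few counts in every library.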

Other observations

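Genes that glucocorticoids induce were listed beside the phosphatases because Dusp1 is among the genes that these hormones raise. Of 14 tested, 6 were higher and 1 lower in the KO at 24 h than after sham, where 28% of all genes were called and 15.9% as higher. In the WT 0 were called by edgeR (2 at an unadjusted p under 0.05), where 0.925% of all genes were called. Sgk1, a serum- and glucocorticoid-regulated kinase, was at 17.8 to 74.6 CPM in KO 24 h livers against 8.43 to 16.8 CPM in KO sham livers, a log2 change of 2.06 (SE 0.35, edgeR adjusted p = 0.000148). Tsc22d3, a glucocorticoid-induced leucine zipper protein, went the other way. It was at 13.9 to 77.7 CPM in KO 24 h livers against 42.2 to 175 CPM in KO sham livers, with a log2 change of -1.46 (SE 0.4, adjusted p = 0.00814), and at 88.1 to 143 CPM in WT 24 h livers.

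Of 12 receptors for growth factors tested, 2 were higher and 3 lower in the KO at 24 h than after sham, where 28% of all genes were called. Pdgfra, a receptor for platelet-derived growth factor, changed by 1.85 (SE 0.38, adjusted p = 0.000823). Egfr, the receptor of Hbegf, was at 142 to 310 CPM in KO 24 h livers against 216 to 645 CPM in KO sham livers, a change of -1.02 (SE 0.3, adjusted p = 0.0125), and at 209 to 312 CPM in WT 24 h livers. Kdr, a receptor that is also on the sinusoidal endothelial marker list, changed by -2.17 (SE 0.53, adjusted p = 0.00305).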
